A study of Homo sapiens and Mus musculus with 33 samples.

Results

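The histone genes that the deposited count tables still list under their older names were taken by symbol alone: every human symbol that starts with HIST1H, HIST2H, HIST3H or HIST4H, the mouse symbols of the same form, and H2AFZ, H2AFX, H3F3A and H3F3B with their mouse counterparts. The rule gave 75 of 36601 human genes and 71 of 32285 mouse genes. In human, 71 members are replication-dependent histone genes and 4 are variant genes, and in mouse 67 are replication-dependent and 4 are variant. No measured value entered the choice. In human, HIST3H3 and HIST1H4G had 0 UMIs (unique molecular identifiers, 1 per captured RNA molecule) in every library, as did 8 mouse members.

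Replication-dependent histone genes encode the H1, H2A, H2B, H3 and H4 proteins that package newly copied DNA. Their mRNAs are made in S phase and end in a stem-loop bound by SLBP, the stem-loop binding protein, rather than in a poly(A) tail, although some members also have polyadenylated forms. Variant genes such as H2AFZ (H2A.Z), H2AFX (H2A.X, phosphorylated at DNA breaks), and H3F3A and H3F3B (both H3.3) give polyadenylated mRNA outside S phase as well. The libraries here were primed on poly(A), so a replication-dependent mRNA without a tail is captured poorly, and the sums of both classes are levels of captured RNA rather than of all histone mRNA.

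The study labelled new RNA with 4-thiouridine (4sU) and converted it with iodoacetamide (IAA) before reading it as T-to-C changes. Human eHAP cells were profiled in 1 standard 10x Genomics 3′ library without 4sU, 1 NOTE-seq library (fixed in formaldehyde, 4sU, IAA) and 1 methanol library (MeOH-4sU-10X, with 4sU and IAA). Jurkat T cells, all titled 4sU-labelled, gave 2 unstimulated (DMSO) and 2 stimulated (PMA/ION) NOTE-seq libraries. The pair titled rep1 is called set 1 and the pair without a number is called set 2, and the labels give clone E6-1 for unstimulated and E6-2 for stimulated cells. Mouse lymph node T cells, described as naive, had 1 library each at 0, 2, 4, 6 and 8 h of anti-CD3 and anti-CD28 stimulation with 4sU and 1 without 4sU. Libraries labelled K562 came with and without IAA, both with 4sU, and 1 library mixed Jurkat E6-1 and mouse NIH3T3 cells without 4sU or conversion. Bulk SLAM-seq libraries of Jurkat E6-1 cells came from control, 50 nM CPT and 1 µM ETO cultures, 3 libraries each, and all 9 are titled as 4sU-labelled. Nothing in the labels ties replicates to separate cultures, so p-values cover only library-to-library spread, possibly a technical one.

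Human single-cell libraries other than the mixed one and those labelled K562 held 7224174 to 80944398 UMIs, the naive T libraries 710533 to 1358518 and the bulk libraries 17776970 to 39602287 reads. The library labelled K562 without IAA held 49 cells, against 1511 with IAA. Any 2 libraries shared at most 2.04% of the smaller one's barcodes. T cell markers summed to 2137 to 3200 CPM (UMIs scaled to the library total) in the Jurkat NOTE-seq libraries and to at most 2.18 CPM in eHAP. In the libraries labelled K562, the list of 10 erythroid or K562 markers reached 0 CPM without IAA and 1.78 CPM with IAA, with 5 of 10 genes detected through 20 UMIs, while myeloid markers reached 296 to 311 CPM. The myeloid list also reached 128, 147.7 and 260.9 CPM in standard, NOTE-seq and methanol eHAP, and 6.81 to 17.0 CPM in the Jurkat NOTE-seq libraries. It thus does not identify the cells. The libraries with the K562 label are therefore called labelled K562 throughout.

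Promoters of the members were searched first, because sequence was not used in the choice by symbol. RefSeq windows (GRCh38.p14, the 250 bases upstream of the start) existed for 70 of the 75 members. On either strand, CCAAT stood in 85.7% of replication-dependent windows against 32% of all 35116 windows. The TATA box, searched as TATAAA, stood in 67.1% against 10.7%, and the octamer ATTTGCAT, a known element of H2B promoters, in 38.6% against 1.63%. Of the 7 windows of variants, 6 held CCAAT, 3 TATAAA and 1 the octamer, so by window CCAAT was as frequent there as in the replication-dependent windows. H2AFX, H2AFZ and H3F3B had a single window each and the others were starts of H3F3A, so the 7 are not independent. By family, the octamer was in 15 of 20 H2B and 11 of 16 H2A windows and in none of H1 or H4. CCAAT was in every H1, H2A, H2B and H3 window but in 3 of 13 H4 windows. HIST1H4C had no window and is not in the H4 count. A match is a description of letters and not a bound site, and overlapping matches on the 2 strands were counted separately. The 4 windows shown belong to members on which results below turn: HIST1H2AG (chr6:27132793-27133042, plus strand) and HIST1H2BH (chr6:26251364-26251613, plus strand), both higher in CPT libraries, HIST1H1B (chr6:27867589-27867838, minus strand), at 0 in eHAP, and the variant H2AFZ (chr4:99950276-99950525, minus strand). Capitals mark matches to these motifs on either strand.
HIST1H2AG: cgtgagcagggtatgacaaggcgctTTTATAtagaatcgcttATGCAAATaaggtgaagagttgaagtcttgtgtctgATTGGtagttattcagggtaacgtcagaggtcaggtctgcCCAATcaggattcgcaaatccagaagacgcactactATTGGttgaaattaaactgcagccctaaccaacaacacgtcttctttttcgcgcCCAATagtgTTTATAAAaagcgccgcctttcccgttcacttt
HIST1H2BH: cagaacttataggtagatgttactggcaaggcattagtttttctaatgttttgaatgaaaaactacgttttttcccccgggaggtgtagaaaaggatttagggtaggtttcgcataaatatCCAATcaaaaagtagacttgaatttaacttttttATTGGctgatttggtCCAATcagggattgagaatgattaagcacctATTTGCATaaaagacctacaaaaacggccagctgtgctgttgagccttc
HIST1H1B: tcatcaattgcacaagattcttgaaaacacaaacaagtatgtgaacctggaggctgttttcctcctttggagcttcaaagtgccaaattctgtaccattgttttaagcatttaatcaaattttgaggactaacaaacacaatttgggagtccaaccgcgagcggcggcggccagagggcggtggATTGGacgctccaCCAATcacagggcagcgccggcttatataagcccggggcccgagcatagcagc
H2AFZ: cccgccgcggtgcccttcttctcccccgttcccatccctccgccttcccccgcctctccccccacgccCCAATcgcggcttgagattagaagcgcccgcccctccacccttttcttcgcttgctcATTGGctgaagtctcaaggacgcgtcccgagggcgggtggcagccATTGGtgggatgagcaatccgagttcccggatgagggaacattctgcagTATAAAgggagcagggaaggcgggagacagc
The HIST1H2AG window carries all 3 motifs, that of HIST1H2BH carries CCAAT and the octamer, that of HIST1H1B only CCAAT, and that of H2AFZ carries CCAAT and the TATA box. HIST1H2AG and HIST1H2BJ are divergent neighbours whose 300-base windows share 253 bases, so they are not independent sequences.

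Captured replication-dependent RNA was lowest in naive mouse T cells. Replication-dependent members summed to 2024.2, 837.8 and 1251 CPM in the standard, NOTE-seq and methanol eHAP libraries, and to 587 and 1217.4 CPM in unstimulated Jurkat sets 1 and 2. In labelled K562 they summed to 560.7 CPM without and 715.8 CPM with IAA. Naive mouse T cells at 0 h had 110.8 CPM from 81 UMIs, below every cell line measured, while mouse NIH3T3 fibroblasts of the mixed library had 463 CPM.
Variant members lay between 845.6 CPM (labelled K562 without IAA) and 7341.2 CPM (methanol eHAP), with naive T cells at 1397.7 CPM at 0 h. As a share of both classes, replication-dependent UMIs made up 31.0% in standard eHAP, 45.0% in labelled K562 with IAA, 29.2% in the Jurkat cells of the mixed library and 7.34% in naive T cells at 0 h. Each value is 1 library with no replicate apart from Jurkat, and intervals here and below are 95% Poisson intervals that cover counting error only.

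**Figure D1:**
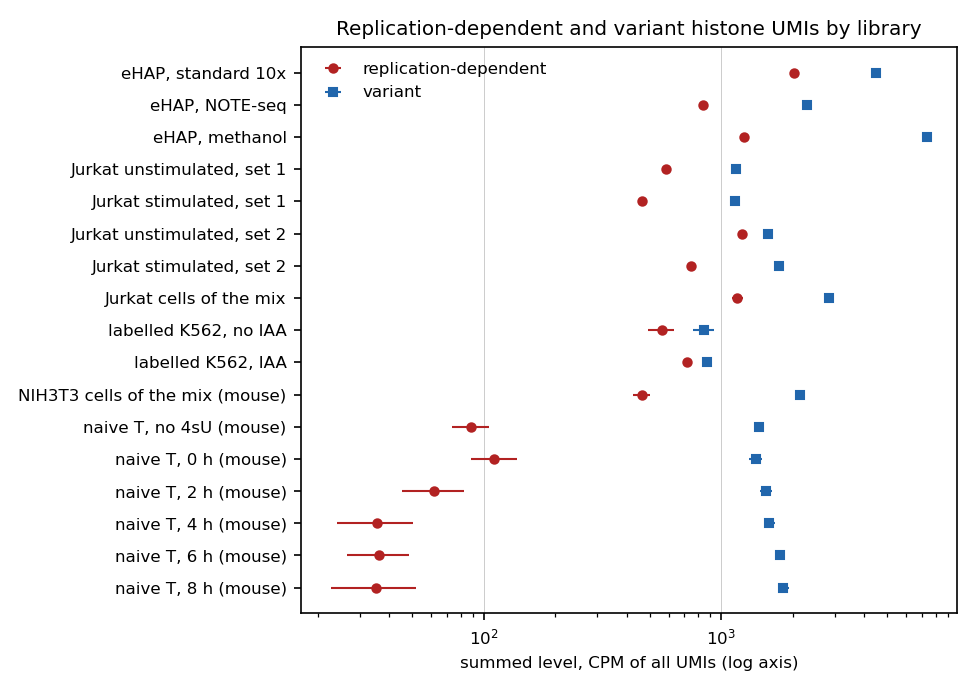
Summed level of replication-dependent (red circles) and variant (blue squares) members in each single-cell library, in CPM of all UMIs on a log axis, with bars for the 95% Poisson interval. Replication-dependent sums ran from 2024.2 CPM in standard eHAP to 35.18 CPM in naive T cells at 8 h, while variant sums lay between 845.6 and 7341.2 CPM.

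One gene carried much of the replication-dependent signal. HIST1H4C, an H4 gene at chr6:26103933-26104337, supplied 41.9% of replication-dependent UMIs in standard eHAP, 30.2% in NOTE-seq and 89.4% in methanol eHAP. In Jurkat it supplied 49.8% and 27.9% of the unstimulated and 54.6% and 28.5% of the stimulated libraries of sets 1 and 2, and in labelled K562 with IAA 54.0%. The share differed between the Jurkat sets more than between stimulated and unstimulated cells.

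In eHAP, the protocols recovered different members of the family. HIST1H4C stood at 847.2 CPM in the standard library, 253.3 CPM in NOTE-seq and 1118.6 CPM in methanol. The linker histone genes were lower at each step: HIST1H1E had 406.8, 156.9 and 20.51 CPM, and HIST1H1D 393.5, 85.24 and 17.18 CPM. HIST1H1C, an H1 gene known to have polyadenylated forms, had 166.7, 59.76 and 12.64 CPM in the same order. Methanol thus had the highest HIST1H4C and the lowest H1 values of the 3 libraries.
Small members went the other way in NOTE-seq. HIST1H2BO had 0.161, 2.98 and 0.284 CPM in the standard, NOTE-seq and methanol libraries, HIST1H4D 1.07, 8.07 and 1.66 CPM, and HIST2H2BE 0.554, 3.62 and 0.568 CPM. HIST1H2BK had 1.07, 5.54 and 3.67 CPM, and HIST2H4B 0.375, 2.80 and 2.05 CPM. HIST2H2AC, an H2A gene, had 27.47, 70.22 and 4.04 CPM, the highest value of the 3 in NOTE-seq. HIST1H2AM had 5.52, 3.56 and 0.136 CPM, and its log2 ratio of methanol to standard, -5.35, was the lowest of the members that reached 100 UMIs there.

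Summed by family, the log2 ratio of NOTE-seq to standard was -1.68 for H1, 0.44 for H2A, 0.42 for H2B, -0.00 for H3 (95% interval -0.09 to 0.09) and -1.59 for H4. All replication-dependent members together gave -1.27 (-1.29 to -1.25), against a median of 0.12 over the 14714 genes that reached 100 UMIs in both libraries together. The sum was lower while most single genes were higher: of 41 replication-dependent members with at least 100 UMIs, 27 were higher and 14 lower, with a median of 0.67. At least 2-fold higher were 14 of the 41, against 17.3% of all genes, and at least 2-fold lower were 8, against 6.49%.
The list of members with polyadenylated forms (HIST1H1C, HIST1H2AC, HIST1H2BC, HIST1H2BD, HIST1H2BK and HIST2H2BE) gave -1.07 as a sum.

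For methanol over standard the family ratios were -4.26 for H1, -1.80 for H2A, -1.0 for H2B, -1.59 for H3 and 0.40 for H4, and the polyadenylated list gave -2.95. The median over 14145 genes was -1.47, so the scale moved for most genes. Of 35 replication-dependent members with at least 100 UMIs, 21 were at least 2-fold lower, against 62.9% of all genes, and 4 were at least 2-fold higher, against 3.49%. Their median of -1.27 lay near that of all genes, whereas H1 lay below it and H4 above it. Mitochondrial and ribosomal-protein genes held 19.4% of UMIs in the standard, 16.8% in the NOTE-seq and 35.9% in the methanol library. With these genes left out of the total, methanol over standard gave -0.36 rather than -0.69 for all replication-dependent members and 1.04 rather than 0.71 for the variants.
Between the 2 labelled protocols, methanol over NOTE-seq gave 1.99 for H4, -2.58 for H1 and 0.58 for all replication-dependent members, against a median of -1.83 over all genes. In that pair, 27 of 37 replication-dependent members were at least 2-fold lower (69.5% of all genes) and 1 was at least 2-fold higher (5.23%). Protocol, 4sU and fixation differ together between the standard library and the other two, and each is 1 library, so they cannot be told apart.

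**Figure D2:**
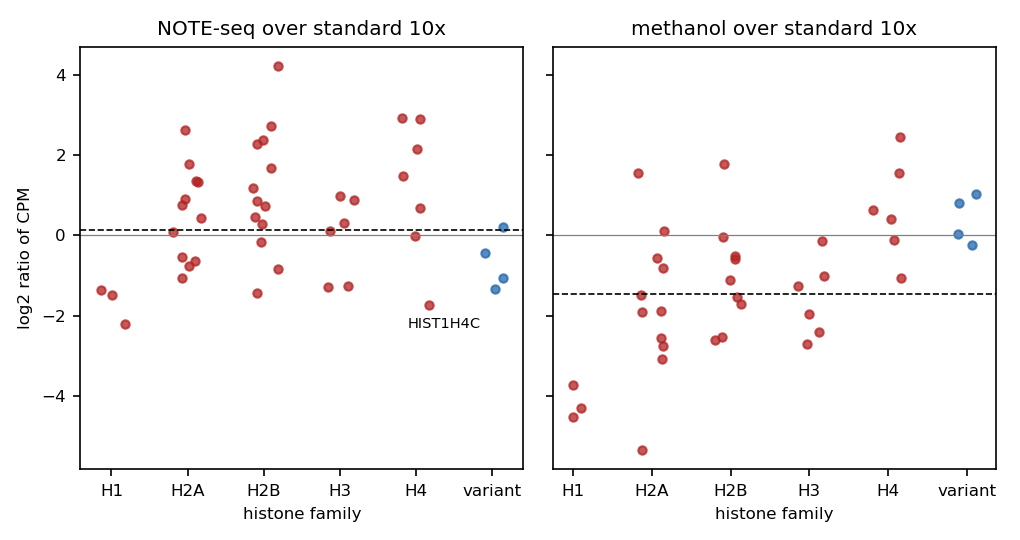
Log2 ratio of CPM for members that reached 100 UMIs over both libraries, by histone family, for NOTE-seq (left) and methanol (right) over the standard 10x library. Red points are replication-dependent genes, blue points variants, and the dashed line is the median of all genes, 0.12 on the left and -1.47 on the right. H1 genes lie below the dashed line in both panels.

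The variants had another order over the protocols than H1. H2AFZ had 2374.9, 934.6 and 4173.3 CPM in the standard, NOTE-seq and methanol libraries, H3F3A 1017.8, 751.1 and 2060.6 CPM, and H3F3B 972.2, 461.4 and 993.8 CPM. H2AFX had 134, 155.2 and 113.5 CPM. Over standard 10x, the NOTE-seq log2 ratios were -1.35 for H2AFZ, -0.44 for H3F3A, -1.08 for H3F3B and 0.21 for H2AFX, and the variant sum was -0.97. Over standard, the methanol ratios were 0.81, 1.02, 0.03 and -0.24 in the same order, and the variant sum was 0.71.
Genes that process histone mRNA or carry histones had medians near 0 in NOTE-seq. SLBP had 189.3, 107.8 and 152.9 CPM in the 3 libraries. The list of histone RNA processing and supply genes had 7 of 15 members higher in NOTE-seq than in standard and 15 of 15 lower in methanol, with medians of -0.06 and -1.51. Of 17 histone chaperone genes, 7 were higher in NOTE-seq (median -0.10) and 17 were lower in methanol (median -1.06). Of 30 S phase genes, 19 were higher in NOTE-seq (median 0.34) and 24 lower in methanol (median -0.96). Over all genes the medians were 0.12 in NOTE-seq and -1.47 in methanol. In methanol these lists thus lay near or above the median gene, and their counts are not read as a shift of their own.

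The cell lines did not capture the same members of the chromosome 6 clusters. Over 170856601 eHAP UMIs, 11 of the 75 members had 0 UMIs and a further 11 had 1 to 3, while 46 had at least 100. Of the 11 at 0, 9 were detected in the 4 Jurkat NOTE-seq libraries, which held 110673010 UMIs. HIST1H1B (chr6:27866792-27867588), a linker histone gene, had 0 UMIs in eHAP and 2578 in Jurkat, at least 1326.6-fold higher when eHAP is set to a floor of 3 counts over all its libraries (0.0176 CPM). HIST1H2AJ had 0 and 1145 UMIs, at least 589.2-fold higher in Jurkat, and HIST1H2BH (chr6:26251614-26252075) 0 and 444, at least 228.5-fold. HIST1H2AI had 0 and 375 UMIs, HIST1H3F (chr6:26250142-26250635) 0 and 207, and HIST1H2BM 0 and 81.
These members sit beside others that eHAP did capture. HIST1H3F and HIST1H2BH are adjacent in order and are followed by HIST1H3G, with 1663 eHAP UMIs. Farther along, HIST1H2AL (chr6:27865317-27865798), HIST1H1B, HIST1H3I (chr6:27871845-27872346) and HIST1H4L (chr6:27873148-27873534) are 4 consecutive members at 0 in eHAP, with 161, 2578, 138 and 182 UMIs in Jurkat. The members on either side of this run, HIST1H2BN and HIST1H3J, had 714 and 667 eHAP UMIs. HIST1H4F, HIST1H2BL and HIST1H2BB were at 1 UMI each in eHAP and at 70, 168 and 9 in Jurkat.
Other members were missing elsewhere. HIST1H3G, with 463 UMIs in Jurkat, had 0 in labelled K562, so Jurkat was at least 16.3-fold higher, and 14 members in all were at 0 in labelled K562, whose depth was lower. HIST1H3C had 85 UMIs in labelled K562, 81 in Jurkat and 2 in eHAP. The counting settings are not given in the sources used here, so near-identical copies of these genes may have split or lost reads.

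**Figure D3:**
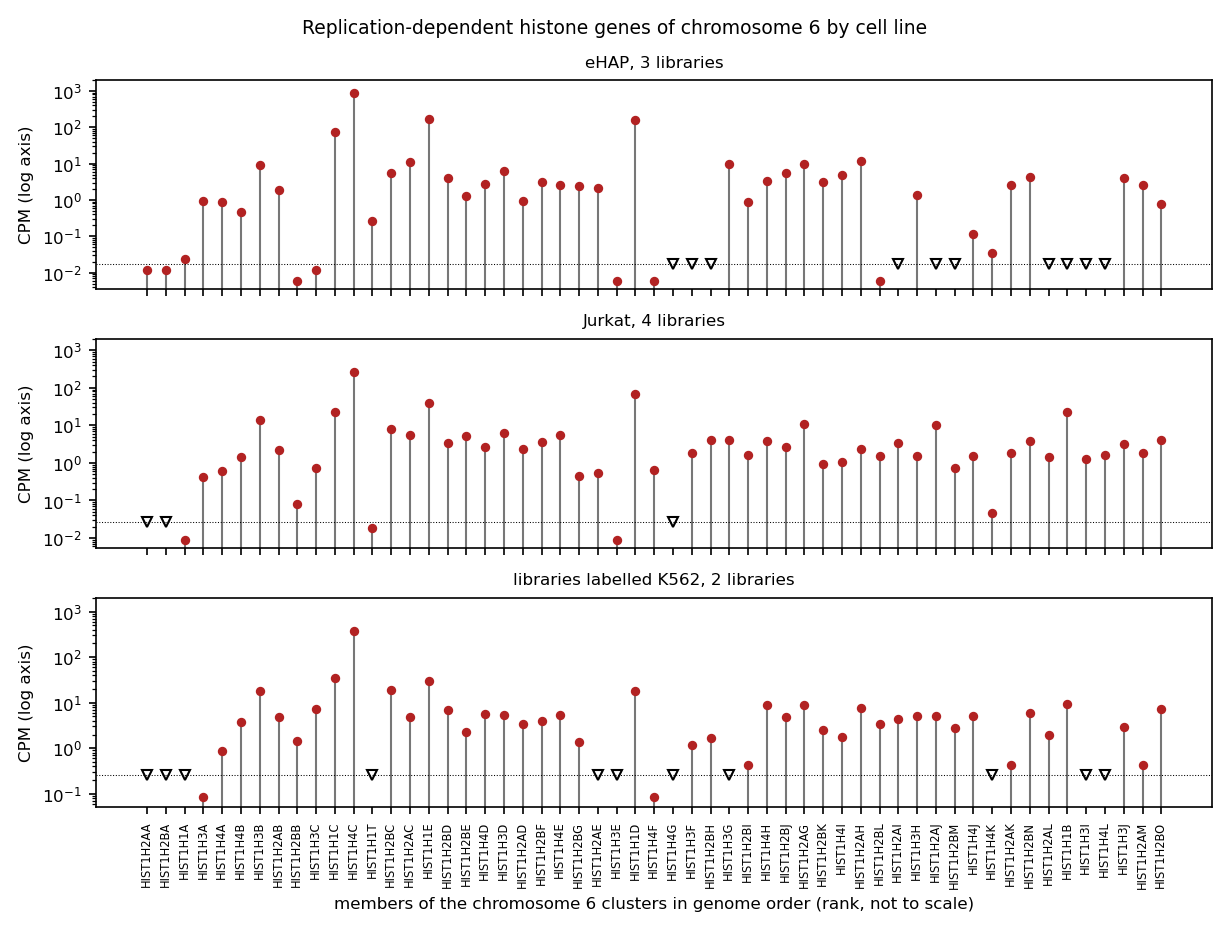
Summed CPM (log axis) of the chromosome 6 replication-dependent members in genome order, by rank, in eHAP (3 libraries), Jurkat (4) and labelled K562 (2). Open triangles are members with 0 UMIs, drawn at the dotted floor of 3 counts, and the run from HIST1H2AL to HIST1H4L is at 0 in eHAP and above the floor in Jurkat.

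In labelled K562, the replication-dependent sum was slightly higher with conversion. With IAA it was 715.8 CPM and without IAA 560.7 CPM, a log2 ratio of 0.35 (0.17 to 0.54) that rests on 248 UMIs in the library without IAA. HIST1H4C had 386.5 CPM with and 275.8 CPM without IAA, and the variant sum had 874 and 845.6 CPM. Of 10 replication-dependent members with at least 100 UMIs, 8 were higher with IAA, and 1 was at least 2-fold higher, against 2.80% of all genes, and 0 were at least 2-fold lower (1.96%). The median log2 ratio over all genes was -0.06. With IAA the library held 11240210 UMIs, against 442297 without, so members reached 100 UMIs mainly through it. The 8 of 10 is therefore not read as a result about the members. There was 1 library of each kind, so no test was made.

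In both sets, stimulated Jurkat libraries had lower captured replication-dependent histone RNA than the unstimulated library of the set. No member passed a test that left the set out of the fit. H1 genes showed the largest ratios of the families. HIST1H1D had 52.39 and 274.5 CPM in unstimulated and 27.8 and 122.3 CPM in stimulated sets 1 and 2. HIST1H1B had 13.62 and 91.91 CPM unstimulated and 8.88 and 47.57 CPM stimulated, and HIST1H1C 17.12 and 71.01 against 11.94 and 39.19 CPM. For all 3 genes the sets differed more than the treatments did, so the groups overlapped even though each set was lower after stimulation.
HIST1H4C had 292 and 340 CPM unstimulated and 252.3 and 212.3 CPM stimulated, and its groups did not overlap. Within sets 1 and 2, the log2 ratio of the replication-dependent sum was -0.35 (-0.37 to -0.32) and -0.71 (-0.75 to -0.67), and that of H1 was -0.75 and -0.90. The variant sum gave -0.02 and 0.15, and the median of all genes was -0.05 in both sets. HIST1H3G had 5.01 and 9.0 CPM unstimulated and 2.81 and 3.98 CPM stimulated.

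With the set left out of the fit, none of the 60 members tested passed edgeR's quasi-likelihood test at an adjusted p of 0.05. Of all 19099 genes, 0 passed (percent called 0). Differences between the sets stayed in the spread of this fit, so the lack of calls does not show that members were unchanged. Blocking by set changed the calls, as given with the alternative runs. In the fit without the set, 0 members passed at an unadjusted p under 0.05, and DESeq2 called 49 genes and 0 members. HIST1H4C had a log2 change of -0.45 ± 0.53 (SE, 2 libraries against 2) and an edgeR adjusted p of 1. Of 17 replication-dependent members with at least 100 UMIs in both sets, 14 were lower in both sets, against 40.9% of all genes, and 0 were higher in both, against 24.2%. HIST1H1D and HIST1H3G were the 2 of 19 members at least 2-fold lower in set 2, where 0.614% of genes were, and 0 of 42 were in set 1 (0.776%). At least 2-fold higher were 0 members in either set, against 3.00% of genes in set 1 and 2.03% in set 2.
The variants had no common direction. H3F3B had 134.6 and 292.9 CPM unstimulated and 150.8 and 403.1 CPM stimulated, and H2AFZ 243.3 and 549 against 233.9 and 615.1 CPM. H3F3A had 677.2 and 623.3 against 665.6 and 604.2 CPM, and H2AFX 99.59 and 115.3 against 87.92 and 128 CPM. SLBP had 78.92 and 106.6 CPM unstimulated and 76.31 and 112.9 CPM stimulated.
Cell cycle lists had smaller ratios than the whole replication-dependent sum. Of 30 S phase genes, 23 were lower in stimulated set 1 and 17 in set 2, with medians of -0.04 and -0.02, and their sum changed by -0.02 and 0.07. Of 30 G2/M genes, 28 and 25 were lower, with medians of -0.28 and -0.13. The T cell activation list stood at 108.5 to 147 CPM unstimulated and 2178.5 to 2535 CPM stimulated. Stimulation and the labelled clone changed together and cannot be told apart, and the part of the shift in cell cycle genes was not tested.

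Stimulated naive mouse T cells had lower captured replication-dependent RNA at every time after 0 h, with 1 library a time and no test. The replication-dependent sum was 110.8 CPM at 0 h, 61.91 at 2 h, 35.4 at 4 h, 36.17 at 6 h and 35.18 at 8 h, from 81, 47, 31, 46 and 25 UMIs. The library without 4sU had 88.33 CPM from 120 UMIs. Against 0 h, the log2 ratios were -0.84 (-1.39 to -0.30) at 2 h and -1.65 (-2.29 to -1.03) at 4 h, and for the library without 4sU -0.33 (-0.75 to 0.10), which spans 0.
The variant sum was 1397.7, 1546.5, 1594.2, 1762.8 and 1824 CPM from 0 to 8 h. Its log2 ratios to 0 h were 0.15, 0.19, 0.33 and 0.38 from 2 to 8 h, while the medians of all genes with 100 UMIs were 0.03, 0.24, 0.44 and 0.45, so from 4 h on the variants were not above most genes. With mitochondrial and ribosomal-protein genes left out of the total, the variant ratios were 0.10, 0.068, 0.20 and 0.23. H3f3a went from 594.9 CPM at 0 h to 761.4 at 8 h and H3f3b from 558 to 793.8 CPM, whereas H2afz had 231.1, 202.9, 141.6, 193.4 and 244.9 CPM. H2afx had 13.68, 14.49, 28.55, 25.16 and 23.93 CPM.
By family, H1 had 16.41, 5.27, 1.14, 0.786 and 1.41 CPM from 0 to 8 h and H2B 17.78, 5.27, 0, 2.36 and 1.41 CPM, each from at most 13 UMIs a library. H4 had 38.29, 31.61, 22.84, 21.23 and 28.15 CPM, with a log2 ratio to 0 h of -0.85 (-1.67 to -0.04) at 6 h. Its intervals at 2 h (-1.13 to 0.56), 4 h (-1.65 to 0.13) and 8 h (-1.35 to 0.44) spanned 0. H2A had 34.19, 17.12, 6.85, 7.08 and 2.82 CPM. H1, H2A, H2B and H4 were thus below their 0 h level at every later time. H3 had 4.10, 2.64, 4.57, 4.72 and 1.41 CPM, from at most 6 UMIs a library, and was not below 0 h at 4 and 6 h. A difference between families was not tested. Hist1h1c, the mouse counterpart of HIST1H1C, had 9, 3, 1, 1 and 0 UMIs and Hist1h4c 6, 5, 4, 9 and 3, in libraries of unequal depth. Slbp had 46.5, 15.81, 11.42, 22.8 and 29.56 CPM, lowest at 4 h like H2afz.
No replication-dependent member reached 100 UMIs in any of these pairs, so no single member can be compared. Over the same times the T cell activation list went from 47.9 CPM at 0 h to 1557 at 2 h and 348 at 8 h. The S phase list went from 429.4 CPM at 0 h to 650.2 at 8 h, from 314 and 462 UMIs. Of its 30 genes, only Pcna reached 100 UMIs in the pairs of 2 to 8 h with 0 h, with a log2 ratio of 1.28 at 8 h. The part of the other S phase genes in this sum was not tested. From 0 to 8 h the chaperones went from 854.7 to 1446.8 CPM and the G2/M list from 57.44 to 39.41 CPM. The medians per cell were 338 to 659 UMIs, B cell markers stood at 44.5 to 147 CPM, and mitochondrial and ribosomal-protein genes held 39.9% to 47.3% of UMIs. With mitochondrial and ribosomal-protein genes left out of the total, the replication-dependent ratios to 0 h were -0.88, -1.77, -1.75 and -1.81 from 2 to 8 h. The part of the activation, cell cycle and B cell genes in the histone values was not tested.

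Within single libraries, replication-dependent RNA was higher with the S phase list in eHAP and Jurkat, while its sum was nearly level in labelled K562. Cells were thinned to 5000 UMIs each, shallower cells were left out (2468 to 2865 eHAP cells and 278 to 2182 Jurkat cells a library remained), and cells were split into 5 bins by the summed UMIs of the S phase list, which holds no histone gene. From the lowest to the highest bin, the replication-dependent sum went from 1523 to 2862 CPM in standard eHAP, from 650.9 to 1107 in NOTE-seq and from 934 to 1594 in methanol. In Jurkat it went from 346.6 to 596 and from 917.9 to 1913 CPM in unstimulated sets 1 and 2, and from 242.1 to 511.5 and from 320.2 to 1187 CPM in stimulated sets 1 and 2. In labelled K562 with IAA the values were 708.6 and 714.5 CPM. The highest bin thus held 1.70 to 3.71 times the level of the lowest in eHAP and Jurkat, and 1.01 times in labelled K562.
Variants changed by 0.857 to 1.22 times over the same bins, and SLBP by 1.16 to 2.63 times. HIST1H4C alone changed by 1.41 to 2.98 times in eHAP and Jurkat, and by 0.890 times in labelled K562. Thinned to 10000 UMIs, labelled K562 kept 218 cells, and its replication-dependent sum changed by 1.14 times. There the sum without HIST1H4C went from 270.5 to 434.9 CPM (1.61 times) and HIST1H4C from 425 to 360.5 CPM (0.848 times).

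Ranked by the G2/M list, eHAP and Jurkat went in opposite directions at this depth. In eHAP the replication-dependent sum went from 2865 to 1052 CPM in standard, from 1054 to 620.3 in NOTE-seq and from 1473 to 699.1 in methanol. In Jurkat it went up, from 161.9 to 740.9 and from 864.3 to 1829 CPM in unstimulated and from 146.5 to 541.3 and from 345.1 to 730.4 CPM in stimulated sets 1 and 2. Thinned to 10000 UMIs, stimulated set 2 turned, with a log2 ratio of -0.44 over the 750 of 1933 cells deep enough, and so did labelled K562 with IAA, with -0.54 over 218 cells against 443.8 to 666.7 CPM at 5000 UMIs.
H2AFX, in contrast to the replication-dependent genes, was higher in the highest G2/M bin of all 8 libraries, by 1.22 to 3.21 times. H2AFZ went by 0.846 to 0.965 times in eHAP and by 1.3 to 1.5 times in Jurkat. Cells are not replicates, so no p-value is given for these bins.

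**Figure D4:**
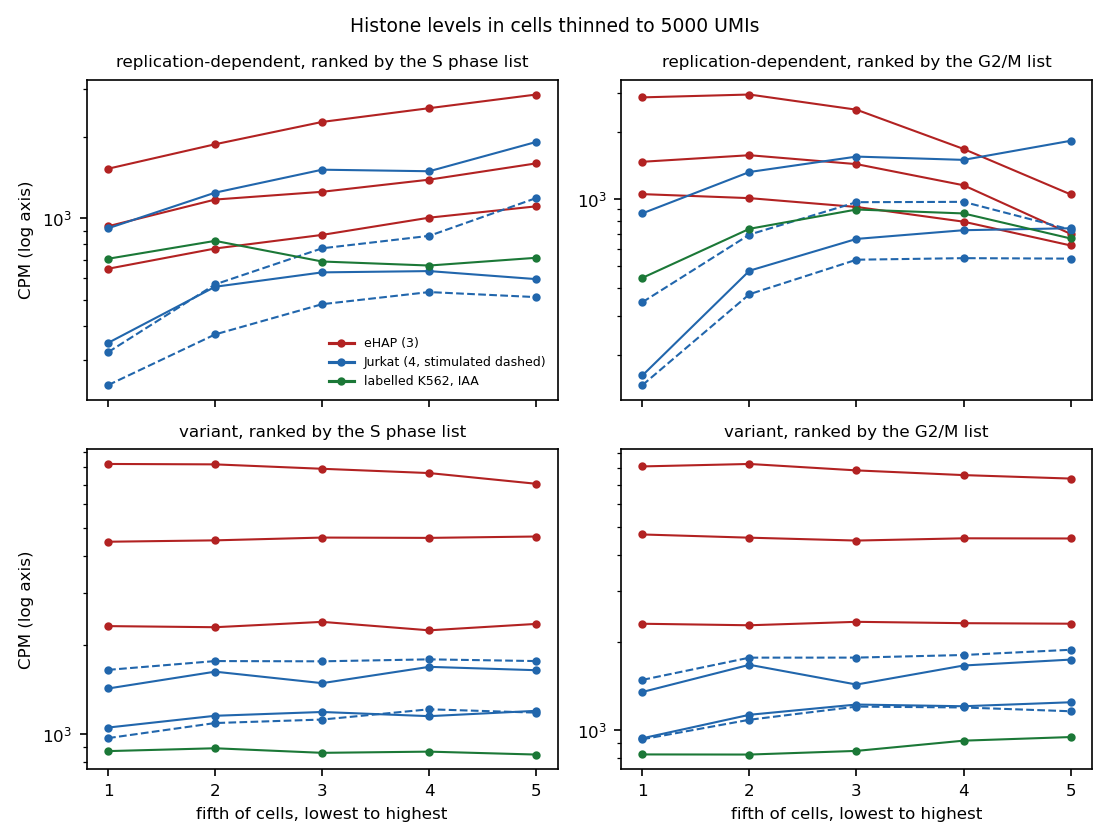
Level of replication-dependent (top) and variant (bottom) members in cells thinned to 5000 UMIs, in CPM on log axes, over 5 bins of cells ranked by the S phase list (left) or the G2/M list (right). Each line is a library: eHAP red, Jurkat blue with stimulated dashed, labelled K562 with IAA green. In the top right panel the eHAP lines end below their start and the Jurkat lines above it.

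Bulk SLAM-seq of Jurkat cells gave converted reads, called new RNA here, beside all reads, called total RNA, under CPT and ETO. Converted T bases made up 0.184% to 0.191% of T bases in controls, 0.119% to 0.122% in CPT and 0.218% to 0.221% in ETO. All 9 libraries are titled as labelled, so no unlabelled library shows how many converted reads are background. Values of new RNA below include any such background, and its part was not tested. Of the 71 replication-dependent members, 41 had a line in the tables, 6 of those had 0 reads in all 9 libraries, and 20 passed the filter on low reads for total RNA. Of the 20, 5 had at least 10 reads in every library of the CPT group only, so their tests favour a higher value there. HIST2H2AA3 (12, 8 and 11 CPT reads) and HIST1H2BJ (15, 39 and 8) were tested without 10 reads in every library of any group. Their CPT libraries lay above all control and ETO libraries. The 5 are therefore not every member tested through CPT reads. In bulk samples, fewer cells of a type and less RNA per cell cannot be told apart. Reads carry no UMIs, and both drug comparisons use the same 3 control libraries.

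CPT libraries held more total RNA of many small replication-dependent members and no less HIST1H4C. HIST1H2BH, an H2B gene, had 1.26, 1.17 and 1.12 CPM in controls, 7.51, 5.48 and 8.21 in CPT and 2.54, 2.37 and 2.56 in ETO. HIST1H2AG, an H2A gene, had 1.11, 0.670 and 0.518 in controls, 8.36, 5.66 and 6.47 in CPT and 1.37, 1.87 and 1.76 in ETO. HIST1H3D, an H3 gene, had 0.615, 1.20 and 0.985 CPM in controls, 4.03, 5.93 and 4.39 in CPT and 2.12, 1.79 and 1.30 in ETO. For each of the 3, all CPT libraries lay above all ETO libraries, and these above all control libraries.
HIST1H4C had 112.9, 141.7 and 150.7 CPM in controls, 151.5, 133.1 and 150.9 in CPT and 104.2, 104.8 and 100.2 in ETO. Its control and CPT values overlapped, and all ETO values were lower.

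Of the 5 replication-dependent members with at least 10 reads in every library of every group, edgeR's quasi-likelihood test called 3 (HIST1H2AG, HIST1H2BH and HIST1H3D) higher in CPT than in control total RNA and 0 lower. Of 17195 features, 48.2% were called, 23.2% higher and 25% lower. A further 9 members were called higher, but each had under 10 reads in at least 1 control library, so they are given as values and not read against that share. HIST1H2AG had a log2 change of 3.03 ± 0.31 (SE, 3 libraries a group) with an edgeR adjusted p of 5.4e-08, and HIST1H2BH 2.44 ± 0.25 with 4.9e-08. HIST1H3D had 2.21 ± 0.33 with an edgeR adjusted p of 7.8e-06. HIST1H2BN (3.11), HIST1H2AC (4.12), HIST1H2BG (3.37), HIST1H2BJ (3.67), HIST1H2AI (2.27), HIST1H4B (4.10), HIST1H3G (2.20) and HIST2H2AA3 (2.75) were among the 9, on at most 153 reads in any library. Among them the calls of HIST1H3G, HIST1H4B and HIST2H2AA3 were lost when single libraries were left out. HIST1H3G rose to an edgeR adjusted p of 0.107 without control 1, 0.092 without control 2 and 0.13 without CPT 2. HIST1H4B reached 0.052 without control 1, and HIST2H2AA3 0.051 to 0.19 without any 1 of controls 1 to 3, CPT 1, CPT 3, ETO 1 or ETO 3.
HIST3H2BB also rose, by 3.83 ± 0.53 with an edgeR adjusted p of 3.2e-06, but 99.4% of its reads mapped to several places, so its source is uncertain. HIST1H4C changed by -0.04 with an edgeR adjusted p of 0.75.

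Read over every member with a line rather than over the tested ones, the picture was the same in kind. Of the 35 replication-dependent members with a read, 16 had all 3 CPT libraries above all 3 control libraries and 0 had all below, against 21.6% and 15.1% of 28881 features, and 19 overlapped. For ETO against control the counts were 8 above and 6 below, against 18.7% and 14.2%, and for CPT against ETO 17 above and 0 below, against 15.3% and 10.5%. The replication-dependent sum without HIST1H4C was 18.55, 17.45 and 18.53 CPM in controls, 52.6, 51.4 and 47.76 in CPT and 16.03, 17.07 and 15.68 in ETO. The CPT values did not overlap with either other group, and ETO lay below control. Without members whose reads mostly mapped to several places, the 37 left summed to 11.07, 10.78 and 10.89 CPM in controls, 40.66, 40.92 and 39.1 in CPT and 12.74, 14.47 and 14.12 in ETO. On that sum ETO lay above control, so the direction for ETO rested on multiply mapped members.

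**Figure D5:**
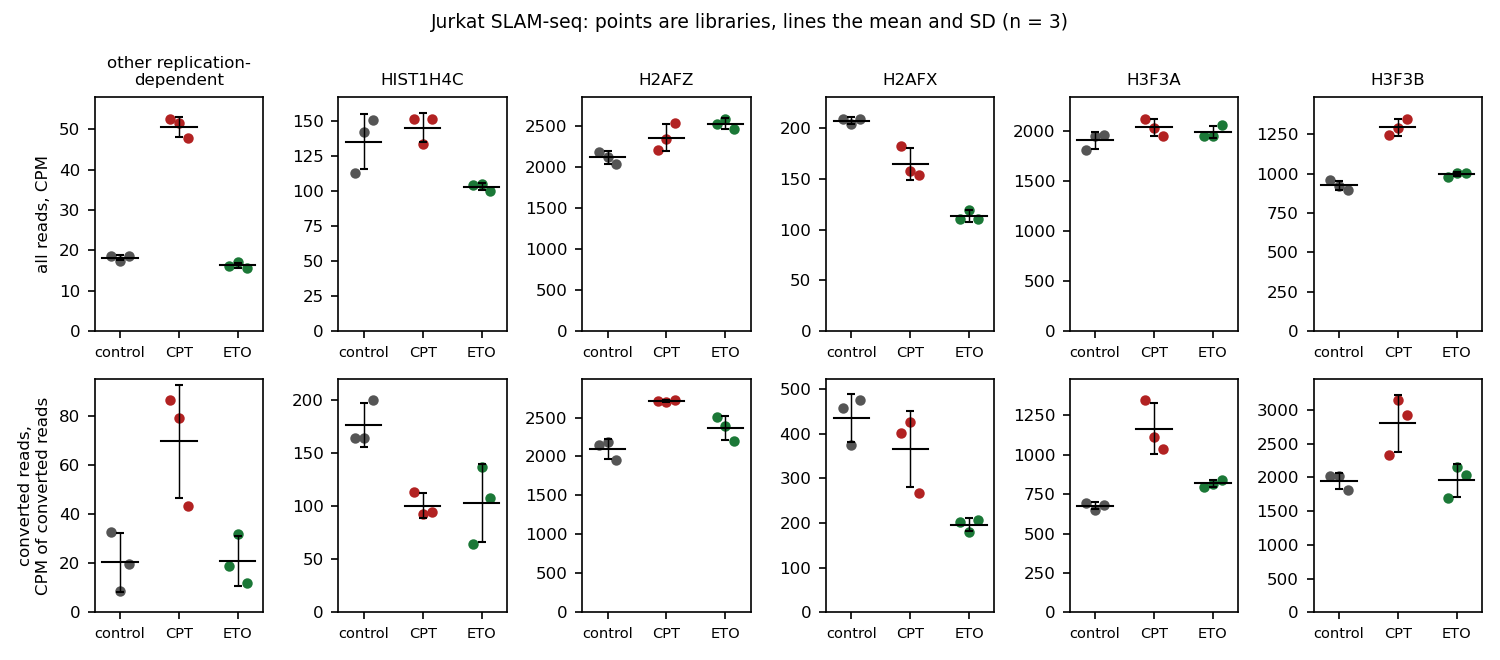
Jurkat SLAM-seq levels in controls, CPT and ETO libraries: all reads in CPM (top) and converted reads in CPM of converted reads (bottom), for the replication-dependent sum without HIST1H4C, HIST1H4C and the 4 variants. Points are libraries and bars the mean and SD (n = 3). In the top left panel the CPT libraries lie at 47.76 to 52.6 CPM and the others at 15.68 to 18.55.

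Under ETO, the members all higher or all lower were near the shares of all features, and a few single genes stood out by size. HIST3H2A, an H2A gene outside chromosome 6, had 7.23, 6.35 and 7.39 CPM in controls, 7.32, 7.27 and 5.40 in CPT and 1.83, 1.74 and 1.26 in ETO, although 100% of its reads mapped to several places. HIST2H2BE, an H2B gene with polyadenylated forms, had 2.86, 1.81 and 1.63 CPM in controls, 3.19, 1.61 and 2.98 in CPT and 0.291, 0.480 and 0.498 in ETO. Both were lowest in all 3 ETO libraries.
Against control, edgeR called 6 replication-dependent members higher and 4 lower, and among the variants H2AFZ higher and H2AFX lower, with 34.5% of all features called, 17.3% in each direction. Of the 6, HIST1H2BN, HIST3H2BB, HIST1H2BG and HIST1H4B had under 10 reads in at least 1 control library. Of the 4, HIST2H2BE and HIST1H2BD had under 10 reads in at least 1 ETO library. The replication-dependent counts are therefore not read against these shares. HIST3H2A fell by 2.18 ± 0.21 on the log2 scale (adjusted p 6.6e-08), HIST2H2BE by 2.33 ± 0.41 (adjusted p 1.4e-04) and HIST1H4C by 0.45 ± 0.08 (adjusted p 2.3e-04). HIST1H2BN rose by 2.88 ± 0.55 (edgeR adjusted p 3.2e-04) and HIST1H2BH by 1.01 ± 0.25 (0.0033). HIST1H2AG (1.08), HIST3H2BB (1.67), HIST1H2BG (2.14) and HIST1H4B (3.86) were called higher and HIST1H2BD (-1.58) lower, and each of these 5 calls was lost without at least 1 library. HIST1H2AG was lost without control 3, HIST3H2BB without control 1 or ETO 1, and HIST1H2BD without control 3, ETO 2 or ETO 3. HIST1H4B was lost without any of the controls or ETO 3, and HIST1H2BG without control 2, control 3, ETO 2 or any CPT library.
Directly between the drugs, whose doses differ, 13 replication-dependent members and the variants H2AFX and H3F3B were called higher in CPT than in ETO and H2AFZ lower, at -0.17 (30.3% of features called, 13.7% higher and 16.6% lower). Members that passed the filter through CPT reads are among the 13, so the count is not read against these shares. HIST2H2BE differed by 2.50, HIST3H2A by 1.97, HIST1H2AG by 1.95 and HIST1H2BH by 1.43 on the log2 scale. HIST1H4C differed by 0.42 with an edgeR adjusted p of 6.7e-04.

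Variants in total RNA changed less in size. H2AFX had 209.7, 204.2 and 209.5 CPM in controls, 182.7, 158 and 154.4 in CPT and 110.7, 119.9 and 110.2 in ETO, and the 3 groups did not overlap. It fell by 0.47 ± 0.07 in CPT (edgeR adjusted p 4.0e-06) and by 0.93 ± 0.07 in ETO (6.4e-10). H3F3B had 956.8, 922.7 and 897.7 CPM in controls, 1245, 1286.2 and 1348.4 in CPT and 980.3, 1003.8 and 1003.6 in ETO. It rose by 0.34 ± 0.04 in CPT (edgeR adjusted p 1.5e-06). H2AFZ had 2188.3, 2127.9 and 2033.5 CPM in controls, 2205.9, 2337.2 and 2537.5 in CPT and 2530.5, 2590.1 and 2458.2 in ETO, and rose by 0.19 ± 0.05 in ETO (edgeR adjusted p 0.0028). H3F3A had 1806.2 to 1954.5 CPM in controls, 1947.3 to 2119.6 in CPT and 1947.4 to 2052.1 in ETO, and 98.6% to 99.2% of its reads mapped to several places.

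New RNA of HIST1H4C was lower in the treated libraries, but did not pass the test. Among converted reads, HIST1H4C had 164.5, 164.6 and 200.4 CPM of converted reads in controls, 114, 92.87 and 95.17 in CPT and 64.06, 137.6 and 108.2 in ETO. All treated libraries lay below all controls, but the log2 changes of -0.78 ± 0.32 in CPT and -0.75 ± 0.29 in ETO had edgeR adjusted p of 0.15 and 0.27. Of its reads, 3.03%, 2.32% and 2.63% were converted in controls, 0.952%, 0.905% and 0.820% in CPT and 1.36%, 2.92% and 2.39% in ETO.
In CPT the converted share of HIST1H4C was below that of every control, while its total level overlapped with control. The ratio of converted to other reads changed by -0.85 ± 0.32 with an edgeR adjusted p of 0.24, against a median of -0.34 over all features.

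Of the 5 members with enough converted reads to test, 3 variants were called higher in CPT than in control new RNA, and 6.12% of 9274 features were called, 3.36% higher and 2.76% lower. H3F3B had 2017.4, 2020.2 and 1816.5 CPM of converted reads in controls, 2335.2, 3147.2 and 2928.6 in CPT and 1688.1, 2154.8 and 2034.4 in ETO, with a CPT change of 0.56 ± 0.11 (edgeR adjusted p 0.0026). H2AFZ had 2153.8, 2181.9 and 1950.1 in controls, 2712.6, 2700 and 2725.3 in CPT and 2505.7, 2386.8 and 2201.2 in ETO, with a CPT change of 0.40 ± 0.09 (edgeR adjusted p 0.0054). H3F3A had 695.2, 652.5 and 682.3 in controls, 1348.5, 1114.4 and 1038.2 in CPT and 798.8, 814.2 and 842.9 in ETO, with a CPT change of 0.82 ± 0.13 (edgeR adjusted p 1.5e-04). All CPT libraries were above all controls for these 3 genes.
Without control 3 the H2AFZ call was lost (edgeR adjusted p 0.083). CPT libraries held 231165 to 290737 converted reads and controls 674619 to 763548. Scaled to all reads of each library instead of to converted reads, the median of all features moved to -0.75. On this scale 3 members (HIST1H4C, H2AFX and H2AFZ) were called lower and 0 higher. The share of all features called on it is not given here, so the 3 are not read against it. H2AFZ turned to -0.28 (edgeR adjusted p 0.025) and H3F3B to -0.12 (0.43), both a smaller fall than that median. The higher values of H2AFZ and H3F3B in CPT are thus relative to other new RNA, and the call of H3F3A was also lost on this scale. Nearly all reads of H3F3A mapped to several places, as given above.

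H2AFX was the member called in ETO new RNA, where 1.90% of features were called, 1.16% higher and 0.733% lower. It had 456.6, 374.3 and 475.4 CPM of converted reads in controls, 401, 426.5 and 268.2 in CPT and 201.6, 180.8 and 207.3 in ETO. Every ETO library was below every control, with a change of -1.14 ± 0.19 (edgeR adjusted p 6.7e-04), and the CPT change was -0.21 ± 0.19 (0.58). Between the drugs, with 1.90% of features called (0.917% higher and 0.981% lower in CPT), H3F3B differed by 0.54 ± 0.11 (edgeR adjusted p 0.0095), H2AFX by 0.92 ± 0.20 (0.014) and H3F3A by 0.53 ± 0.12 (0.023), all higher in CPT. These 3 calls fell to 0 without ETO 1 or ETO 3 and to 1 without ETO 2, and that of H3F3A was also lost without any 1 of the controls or CPT 1.
For the ratio of converted to other reads, H3F3A was called higher in CPT (0.77 ± 0.13, edgeR adjusted p 4.2e-04, with 0.836% of features called, 0.503% higher and 0.333% lower), and no member was called in ETO (0.601% of features called, 0.490% higher and 0.111% lower), where edgeR gave 1 variant and 0 replication-dependent members at an unadjusted p under 0.05. DESeq2 was not run on that ratio.

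Lists of genes around the histones were counted in the same fits. In total RNA, 22 of 27 S phase genes tested rose in CPT and 0 fell (median 0.29), and 20 rose and 1 fell in ETO (median 0.28), against medians of 0 and 0.01 over all features. G2/M genes had 2 of 29 higher and 22 lower in CPT and the same counts in ETO. Of 17 histone chaperones, 3 rose and 10 fell in CPT, with ASF1B, which hands H3 and H4 to assembly factors, at 0.86 and NASP at -0.31. Of 6 other histone variants tested, H2AFV rose (0.61) and CENPA (-0.68) and H2AFY (-0.29) fell in CPT, and H1F0 (-0.73), H1FX (-0.54) and CENPA (-0.72) fell in ETO.
Of 13 genes of histone RNA processing and supply, 5 rose and 3 fell in CPT, against 23.2% and 25% of all features, and 2 rose and 1 fell in ETO, against 17.3% each way. Apart from the 5 in CPT, these are at or below the shares of all features. Of 4 tested members with polyadenylated forms, HIST1H2AC rose in CPT (1 of 4, with 23.2% of all features higher). HIST2H2BE and HIST1H2BD fell in ETO (2 of 4, with 17.3% lower). HIST1H2AC had at least 10 reads in every library only in CPT, and HIST2H2BE and HIST1H2BD only in control and CPT. These counts are therefore not read against the shares. In new RNA under CPT, 10 of 26 S phase genes rose and 0 fell, and CCNE1 (1.47) and CCNE2 (1.36), cyclins of S phase entry, were among the 3 of 13 supply genes that rose. SLBP had 121.4, 119.3 and 119.2 CPM of total RNA in controls, 140.8, 136.3 and 135.3 in CPT and 111.6, 123.4 and 114 in ETO, and its change in CPT was 0.06 with an edgeR adjusted p of 0.44. Mitochondrial reads made up 0.397% to 0.473% in controls, 2.09% to 2.66% in CPT and 1.12% to 1.17% in ETO, and their part in the histone values was not tested.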

How the data were processed

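The members and gene lists were chosen with earlier results of these data known. The authors deposited UMI counts per gene and cell (cellranger 7.1.0 or, for naive T cells and the mix, 7.2.0, per the file headers) and, for SLAM-seq, read counts and converted read counts per 3′ UTR (slamdunk 0.4.3, per the file headers), with builds GRCh38 and mm10 per the submitters' processing notes. Further settings are not given in the sources used here.

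Barcodes were used as deposited, with no further filter on cells and no removal of doublets. Only in the mixed library were cells split by species, at 90% of UMIs, and 56 barcodes with both species left out. UMIs were summed per library and expressed as CPM of all UMIs. Every library captures 3′ ends, so values were not divided by gene length. Overlapping Jurkat 3′ UTR lines (122239) were joined into 68314 groups. RefSeq genes ending within 2000 bases of a group's 3′ end on its strand gave it a name, which covered 91.1% of reads and 45 of 75 members.

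Tests were edgeR 4.0.16 quasi-likelihood fits (R 4.3.3, filterByExpr, TMM) across all features, with Benjamini-Hochberg adjustment and calls at adjusted p under 0.05. All 9 SLAM-seq libraries shared 1 fit. DESeq2 1.42.0 was an alternative, and the scripts were tested on simulated data. Single libraries got exact Poisson intervals and no test. Named genes were HIST1H4C, SLBP, the 4 variants, members past the threshold (at most the 12 smallest p) with the 6 of highest CPM, in single libraries the 8 members of highest CPM with the 4 largest and 4 smallest ratios, and up to 4 genes per related list. Members at 0 or at 1 to 3 UMIs in 1 cell line, with their neighbours, were chosen after their values were seen. Alternatives were other scalings, filters, depths and quantiles, the replicate block, and leaving out each library. Same-set Jurkat single-cell libraries deviated together (r = 0.865). With 2 libraries a group, deviations within a group mirror each other, so the 2 pairs give 1 value and not separate observations. The bulk libraries of naive T cells were not analysed here, since their lines were not paired with names.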

Additional observations from a re-analysis of the deposited data

Results flagged for a closer look

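In cells thinned to 5000 UMIs and ranked by the G2/M list, every eHAP library moved one way and every Jurkat library the other for 4 quantities. The difference between the lines was not tested. For the replication-dependent sum, the log2 ratio of the highest to the lowest of 5 bins was -1.45 to -0.77 in the 3 eHAP and 1.08 to 2.19 in the 4 Jurkat libraries, and the medians differed by 2.56 (Jurkat minus eHAP). Without HIST1H4C the sum gave -1.85 to -0.26 and 0.87 to 1.68, and the medians differed by 2.08. HIST1H4C alone gave -1.17 to -0.52 and 1.14 to 2.86, with a difference of 3.02. The variant H2AFZ gave -0.24 to -0.05 and 0.37 to 0.59, with a difference of 0.58. At 10000 UMIs, stimulated Jurkat set 2 turned to -0.44 for the replication-dependent sum and to -0.78 for the sum without HIST1H4C. HIST1H4C was then at 0.38 in that library and H2AFZ at 0.077 in unstimulated set 2, both closer to 0 than any Jurkat value at 5000 UMIs.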

How the results depend on the processing

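Of the main values and counts under every alternative run, 154 kept their direction and size, 51 moved and 5 reversed. Of the single genes, 1029 stayed, 89 lost and 11 gained a call, 76 moved and 4 reversed. The cause was not tested for any of them unless given here. With library sizes from all reads, new RNA gave 3 members called in CPT against control (0 higher) and 2 in CPT against ETO, where CPT libraries hold fewer converted reads. The shares of all features called on this scale are not given here, so these counts are not read against them. The genes that reversed were H2AFZ (-0.28) and H3F3B (-0.12) against control and H3F3A (-0.27) and H3F3B (-0.26) against ETO. With only the 2 groups compared, 2 members (H2AFX and HIST1H4C) were called in ETO against control and 1 in CPT against ETO. Leaving out 1 library gave 0 to 1 members for CPT against ETO, from 3.

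Blocking Jurkat single-cell libraries by set (replicate block) called 8 members, 0 higher and 8 lower, from 0. HIST1H1D (-1.02), HIST1H1B (-0.77), HIST1H1C (-0.67), HIST1H1E (-0.52) and HIST1H4C (-0.42) were among them. With 2 pairs and 1 number in the labels, the block was not the design. The share of all genes called with the block is not given here, so the 8 are not read against it. In the SLAM-seq libraries, same-numbered samples deviated together with r from -0.034 to 0.013, so the numbers share only a number, and the replicate block lost the calls of HIST2H2AA3 (CPT) and HIST1H2BG (ETO).

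Without mitochondrial and ribosomal-protein genes in the total, NOTE-seq over standard gave -1.32 for replication-dependent and -1.01 for variant members, methanol over standard -0.36 and 1.04, and methanol over NOTE-seq 0.96 and 2.05. Naive T variants gave 0.068 at 4 h, 0.20 at 6 h, 0.23 at 8 h and -0.15 without 4sU. As means over cells, the same eHAP pairs gave -1.37 and -0.89, -0.57 and 0.67, and 0.80 and 1.56. Leaving out barcodes under 0.5 of the median UMI count gave 0.55 for methanol over NOTE-seq.

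At 10000 UMIs, the S phase ranking gave 1.14, 1.04 and 0.92 in standard, NOTE-seq and methanol eHAP, 0.49 in unstimulated set 1, 0.92 and 1.46 in stimulated sets 1 and 2 and 0.19 in labelled K562. The G2/M ranking gave -1.83, -1.08 and -1.27 in eHAP, 1.86 and 0.67 in unstimulated sets 1 and 2, -0.44 in stimulated set 2 and -0.54 in labelled K562. With 3 bins, the S phase ranking gave 0.74, 0.68 and 0.56 in eHAP, 0.52 and 0.74 in unstimulated and 0.84 and 1.34 in stimulated Jurkat. The G2/M ranking then gave -1.23, -0.61 and -0.82 in eHAP, 1.57 and 0.82 in unstimulated and 1.25 and 0.76 in stimulated Jurkat, and 0.40 in labelled K562.

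Chosen after seeing the data, leaving out members whose reads mostly mapped to several places moved the SLAM-seq sum without HIST1H4C from 1.48 to 1.88 in CPT and from -0.16 to 0.34 in ETO. Depth limits the naive T cells, with 25 to 120 replication-dependent UMIs, and the 248 of labelled K562 without IAA. The 4sU dose comparison in naive T SLAM-seq was not run, because its lines were not paired with gene names.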
